A study of Danio rerio with 2 samples.

Results

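The genes described here encode the mRNA decapping enzyme, the proteins that activate it and the exonuclease that follows it. They were taken by symbol (dcp2, dcp1a, dcp1b, edc3, edc4, pnrc2, xrn1, ddx6, lsm14aa and lsm14b), and 11 of the 32571 rows of the deposited table carry one of these 10 symbols, since dcp2 names 2 gene models. Both groups were AB-strain zebrafish embryos, taken whole at 6 hpf (hours post fertilization), around the onset of gastrulation, from natural matings. One group was mock-injected, and the other is labelled Dcp2DN-injected and described as expressing Dcp2-DN, a form of Dcp2 used to inhibit decapping in a dominant-negative manner. Each RNA extract pooled 40 to 50 embryos, and the molecule injected, its dose and what the mock injection contained are not given in the sources used here.

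Decapping removes the cap from the 5′ end of an mRNA, usually after its poly(A) tail has been shortened, and exposes the body to degradation from that end. Dcp2 is the catalytic subunit and is nearly inactive without help. Dcp1 binds its regulatory domain, Edc3 and the scaffold Edc4 enhance it, the RNA helicase Ddx6 and Lsm14 proteins connect it with translational repression, Pnrc2 is an adaptor for Dcp1, and Xrn1 degrades the decapped RNA. In the early zebrafish embryo this pathway takes part in the clearance of mRNAs supplied by the mother.

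Levels are FPKM values (fragments counted per kilobase of transcript and scaled for library size, in a way not given in the sources used here). The authors' deposited table holds 1 per gene and group, so no SD can be given. Statistical tests are the authors' own Cuffdiff results, and a gene is described as called where that table marks it significant, a mark that every tested row below q = 0.05 carries and no other row does. The design text states 3 replicates per group. Among 7240 rows with both values above 0 and under 1 FPKM, the ratios between 0.9 and 1.1 that recurred most took 9 values, from 0.9459 to 1.0843, each shared by 34 to 47 rows, and the next was shared by 9. These 9 ratios equal the products of 3 factors with 3 factors to within 0.000965%, the pattern that single reads in 3 libraries of each group would give. The largest factor, relative to the smallest of its group, was 1.07 in one group and 1.08 in the other. Effective depths implied by these ratios thus differed little within a group. Only ratios between 0.9 and 1.1 were searched, so larger differences could not be seen, and absolute depth is unknown. Nothing states that the libraries came from separate clutches, so the p-values may measure technical spread. The gastrula genes gsc (65.0 FPKM in mock, 79.0 in Dcp2-DN), tbx16 (254 and 283) and sox32 (188 and 187) were present in both groups. In RNA from whole embryos, fewer cells of a type and less RNA per cell cannot be told apart.

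The authors' deposited table called 4 of the 11 rows higher in Dcp2-DN embryos and 0 lower. These were the helicase gene ddx6, the repressor gene lsm14b and both Dcp1 genes, dcp1a and dcp1b, with rises between 1.44-fold and 1.7-fold. Neither dcp2 model was called, although one of them stood at 212 FPKM in Dcp2-DN against 0.0398 in mock embryos. The enhancers edc3 and edc4, pnrc2, lsm14aa and xrn1 were not called either. Over all 14810 rows with a test, 20.6% were called higher and 4.35% lower. At an unadjusted Cuffdiff p under 0.05 the count of lower members was 0 as well, where 8.22% of all tested rows were lower. The 4 calls are 36.4% of the members, and with 11 rows this share is given as a count and not as a property of the group. All 11 rows had a test, and none shared its locus or overlapped another row of the table.

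**Figure D1:**
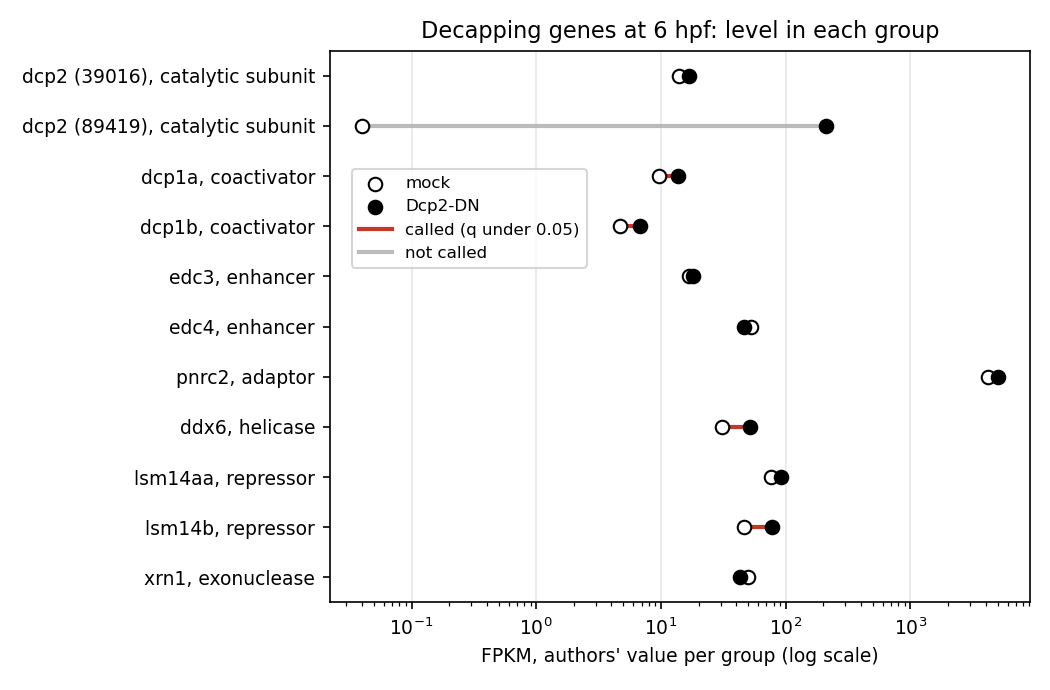
Level of each decapping gene in mock (open circles) and Dcp2-DN embryos (filled circles), in FPKM on a log scale, with the last digits of the gene ID for both dcp2 models. Red lines join the 4 genes called in the authors' deposited table (dcp1a, dcp1b, ddx6 and lsm14b), and the longest line, from 0.0398 to 212 FPKM, belongs to a dcp2 model that was not called.

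The catalytic subunit, of which Dcp2-DN is a form, was represented by both dcp2 models. The dcp2 model ENSDARG00000039016 (chromosome 10, 8458720 to 8479699, Zv9 as in the deposited table) had 13.9 FPKM in the mock and 16.7 FPKM in the Dcp2-DN group. This 1.2-fold difference had p = 0.03545 and q = 0.109 in the authors' deposited table and was not called. Among 1258 tested rows whose log2 ratio lay within 0.05 of this model's, 7.63% were called, so a difference of this size was seldom called anywhere in the table. In mock embryos this model held nearly all of the dcp2 signal, at 350 times the level of the other.

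The other dcp2 model, ENSDARG00000089419 (chromosome 10, 8616815 to 8636669), showed the reverse balance. It was at 0.0398 FPKM in mock embryos, rank 23142 of all rows, and at 212 FPKM in Dcp2-DN embryos, rank 673. In the Dcp2-DN group it was 12.7 times as high as the first model. Summed over both models, dcp2 reached 13.9 FPKM in the mock and 228 FPKM in the Dcp2-DN group, a 16.4-fold higher sum, of which this model made up 0.285% in mock and 92.7% in Dcp2-DN. The higher value stands in the group labelled Dcp2DN-injected, and the mock group was injected as well. Transcripts of the embryo's own gene and those of an injected Dcp2 sequence cannot be told apart in a table of levels per gene.

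Despite its size, the difference of this second model had p = 0.147 and q = 0.303 in the authors' deposited table. Its log2 ratio was 10.56 with 0.1 FPKM added to each value, and only 1 tested row had a higher one. Large ratios without a call were common at this end of the table: of 21 tested rows with a log2 ratio above 3, 4 were called, and of the 8 among them that were above 0 in mock, 3 were called. By contrast, of 620 tested rows that were above 0 in mock and at least 2-fold higher in Dcp2-DN embryos, 469 were called. The 3 other rows with the largest ratios, among those reaching 10 FPKM in either group, were the small nucleolar RNA SNORD66 (listed at 0 in mock, 525 FPKM in Dcp2-DN), the microRNA row mir15c (listed at 0, 117 FPKM) and CU550700.2 (listed at 0, 63.3 FPKM). None of these was called, and CU550700.2 had no test.

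The rows around both dcp2 models stand in mirrored order along chromosome 10. From low to high coordinates the table lists a 5S_rRNA row, dcp2 (ENSDARG00000039016), reep5, CHD1, reep5 again, dcp2 again (ENSDARG00000089419) and another 5S_rRNA row. The reep5 gene, which encodes a membrane-shaping protein of the endoplasmic reticulum, is thus also present as 2 models, 1 beside each dcp2 model, while the chromatin remodeller gene CHD1 lies between them once. The 2 dcp2 models span similar lengths (20979 and 19854 bases) and lie 137116 bases apart. The RefSeq gene table of the later assembly GRCz12tu lists 1 dcp2, 1 reep5 and 1 chd1 gene, in the order ca9, dcp2, reep5, chd1. Whether both Zv9 models stand for 1 gene was not tested, and how reads that match both were counted was not given, so the split of signal between them is uncertain.

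**Figure D2:**
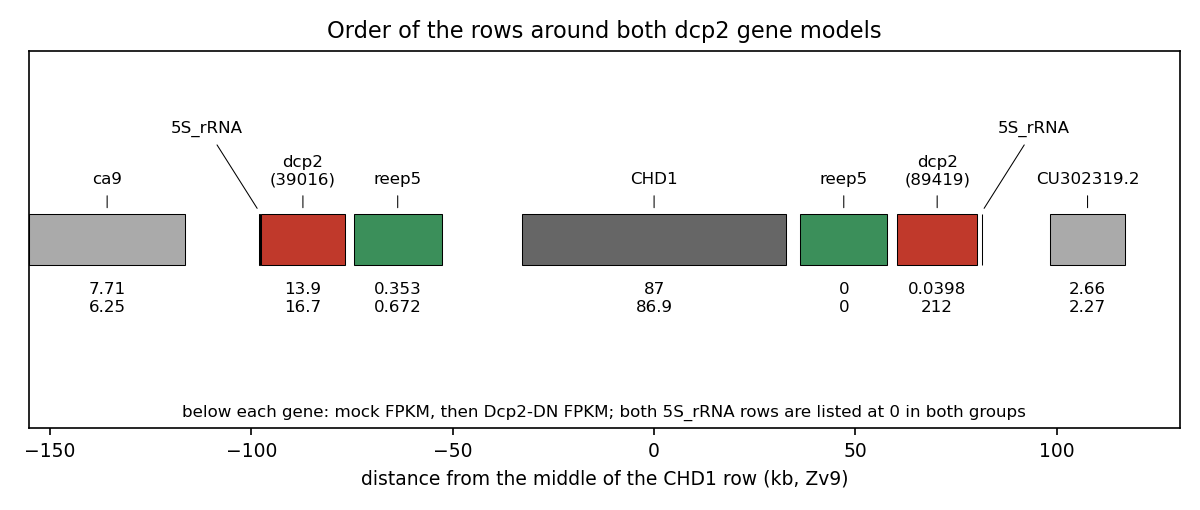
Rows of the deposited table around both dcp2 gene models, drawn to scale as distance in kb from the middle of CHD1, with mock FPKM and Dcp2-DN FPKM printed below each. The order 5S_rRNA, dcp2, reep5 to the left of CHD1 is mirrored to its right, and only the right-hand dcp2 model goes from 0.0398 to 212 FPKM.

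The rows next to the second model had no test and no ratio that could be set beside its own. Its reep5 neighbour, ENSDARG00000091537, was listed at 0 in both groups, and so was the 5S_rRNA row on its other side. The reep5 model beside the first dcp2 model was at 0.353 and 0.672 FPKM and had no test. CHD1 had 87.0 FPKM in the mock and 86.9 FPKM in the Dcp2-DN group, with p = 0.990 in the authors' deposited table.

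Both Dcp1 genes rose by nearly the same factor. Dcp1 proteins bind Dcp2 and promote its active conformation, and vertebrates carry an a and a b form. dcp1a (ENSDARG00000003323, scaffold Zv9_NA698, 37277 to 48796) rose from 9.60 to 13.8 FPKM, 1.44-fold, with q = 0.000593 in the authors' deposited table, the lowest q it holds. dcp1b (ENSDARG00000045484, chromosome 4, 19238521 to 19250439) rose from 4.72 to 6.79 FPKM, also 1.44-fold, with p = 0.003 and q = 0.0171 there.

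The ratio of dcp1a to dcp1b was therefore 2.03 in both groups, and dcp1a made up 67.0% of their summed FPKM in each. The sum went from 14.3 to 20.6 FPKM. dcp1b was the lowest member apart from the second dcp2 model in mock embryos, and the lowest of all in Dcp2-DN embryos. Of 804 tested rows with a log2 ratio within 0.05 of that of dcp1a, 60.9% were called.

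The enhancers of decapping showed no call. Edc3 binds the decapping enzyme and Ddx6, and edc3 (ENSDARG00000051931, chromosome 25, 21315430 to 21337882) had 16.8 FPKM in the mock and 17.9 FPKM in the Dcp2-DN group, with q = 0.574 in the authors' deposited table. Edc4 is a scaffold that, in human cells, joins Dcp1 with Dcp2. Its gene edc4 (ENSDARG00000062266, chromosome 18, 21641227 to 21691702) was at 52.7 and 46.4 FPKM, a ratio of 0.88, with p = 0.075 and q = 0.188 in the authors' deposited table. Of 1458 tested rows with a log2 ratio within 0.05 of that of edc4, 0 were called in the authors' deposited table and 132 had an unadjusted Cuffdiff p under 0.05.

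The adaptor gene pnrc2 was by far the most abundant member. Pnrc2 links Dcp1 with decay factors, and in zebrafish it is known for the rapid decay of oscillating transcripts during segmentation. pnrc2 (ENSDARG00000053291, chromosome 16, 35415511 to 35419338) had 4198 FPKM in the mock and 5028 FPKM in the Dcp2-DN group, rank 16 and rank 8 of all rows. Per length, its level was 302 times that of the first dcp2 model in mock and 301 times in Dcp2-DN embryos.

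The 1.2-fold difference of pnrc2 equals that of the first dcp2 model in size but had p = 0.532 and q = 0.704 in the authors' deposited table. Upward calls were rare among rows this abundant, and so were upward differences. Of 146 tested rows with at least 1000 FPKM in mock embryos, 1 was called higher and 12 were called lower by the authors. Only 4 of the 146, pnrc2 among them, were at least 1.1-fold higher in Dcp2-DN embryos, and 1 of these 4 was called.

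The helicase and 1 of the repressor genes had the largest called rises of the group. Ddx6 is a DEAD-box helicase that binds the CCR4-NOT deadenylase and decapping activators and represses translation. ddx6 (ENSDARG00000061338, chromosome 18, 42272062 to 42280763) rose from 30.6 to 52.0 FPKM, 1.7-fold, with q = 0.000593 in the authors' deposited table. Its log2 ratio of 0.76 was above that of 91.5% of all tested rows. Of 411 tested rows with a log2 ratio within 0.05 of it, 78.3% were called.

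Lsm14 proteins bind Ddx6, and in frog oocytes a member of the family is part of stored, untranslated mRNA particles. lsm14b (ENSDARG00000025386, chromosome 23, 569611 to 583399) rose from 46.2 to 77.7 FPKM, 1.68-fold, with q = 0.000593 in the authors' deposited table. lsm14aa (ENSDARG00000006600, chromosome 25, 36976546 to 36998536) was at 76.0 and 92.5 FPKM, 1.22-fold, and was not called (p = 0.0513, q = 0.143 there). The third gene of the family, lsm14ab, which is outside the symbols chosen, was at 65.1 and 73.1 FPKM and was not called (q = 0.214).

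lsm14b was the lowest of the 3 Lsm14 genes in mock embryos and lay between the other two in Dcp2-DN embryos. It made up 24.7% of their summed FPKM in mock and 31.9% in the Dcp2-DN group. The share of lsm14aa was 40.6% and 38.0%, and that of lsm14ab was 34.8% and 30.0%. The sum of the 3 went from 187 to 243 FPKM, a ratio of 1.3. Whether lsm14b rose more than the other two was not tested, since the table holds no value per library.

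The exonuclease gene xrn1 (ENSDARG00000091652, chromosome 2, 16417593 to 16467843), whose product degrades decapped RNA from its 5′ end, had 49.9 FPKM in the mock and 42.8 FPKM in the Dcp2-DN group. The ratio of 0.856 had p = 0.0877 and q = 0.210 in the authors' deposited table and was not called. Of 1256 tested rows with a log2 ratio within 0.05 of it, 3.34% were called. xrn1 and edc4 were the 2 members with a lower FPKM in Dcp2-DN embryos, and the other 9 had a higher one.

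**Figure D3:**
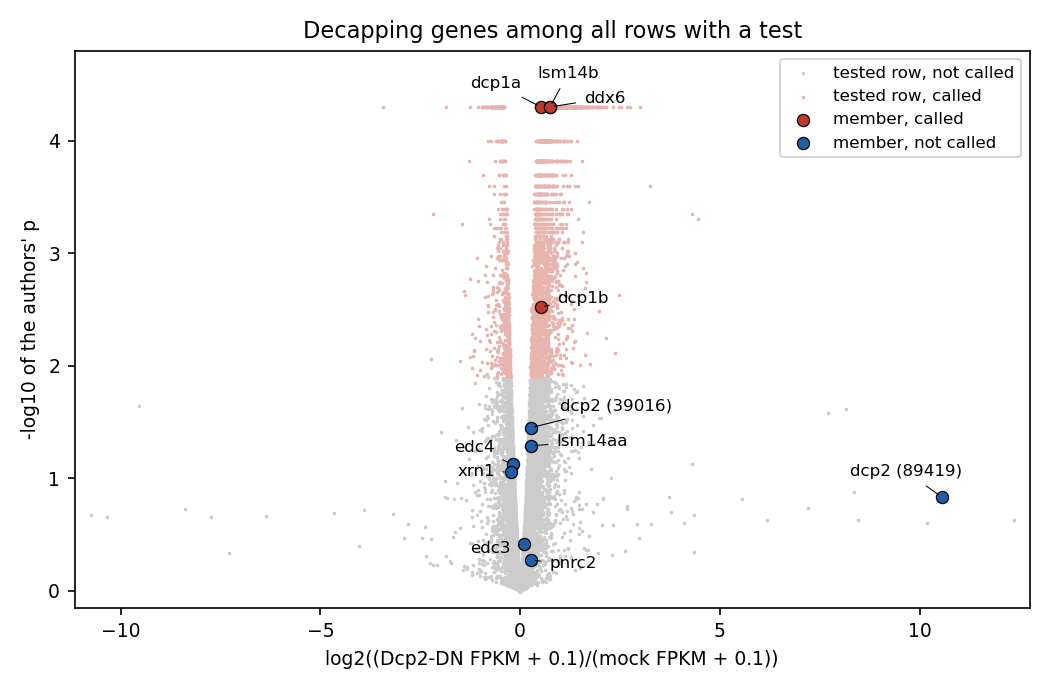
Log2 ratio of Dcp2-DN over mock FPKM, with 0.1 FPKM added to each, against -log10 of the authors' p for all 14810 rows with a test. The members called (red) lie at log2 ratios of 0.51 to 0.76, and the second dcp2 model stands far to the right at 10.56, low on the p axis.

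The order of levels among the members differed between the groups. In mock embryos it ran from pnrc2 through lsm14aa, edc4, xrn1, lsm14b, ddx6, edc3, dcp2 (ENSDARG00000039016), dcp1a and dcp1b to the second dcp2 model. In Dcp2-DN embryos the second dcp2 model stood next to pnrc2, and lsm14b and ddx6 stood above edc4 and xrn1. The level of ddx6 relative to the first dcp2 model was 2.21 in mock and 3.11 in Dcp2-DN, that of lsm14b 3.33 and 4.65, that of edc4 3.79 and 2.78, and that of xrn1 3.59 and 2.56. With 1 value per group, whether neighbours in this order differ beyond their spread was not tested.

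Over the 15457 rows whose mean FPKM reached 1, the median log2 ratio was 0.12, while the FPKM summed over all rows was lower in Dcp2-DN (908503) than in mock embryos (963061). Among the 11 members the median was 0.28. Relative to the median of all rows, the log2 ratio was 0.64 for ddx6, 0.63 for lsm14b and 0.40 for both dcp1a and dcp1b. It was 0.16 for lsm14aa, 0.15 for the first dcp2 model and 0.14 for pnrc2. It was -0.021 for edc3, -0.30 for edc4 and -0.34 for xrn1, none of which was called. On the scale of the ribosomal protein genes, whose own median was -0.21 over 81 rows, edc4 turned to 0.030 while xrn1 stayed below 0 at -0.0096. The directions of the 4 called genes were the same on all 3 scales.

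Other call rules moved the count of members between 2 and 5 higher and left 0 lower. At q under 0.01, 3 members remained higher, without dcp1b, where 13.5% of tested rows were higher and 1.55% lower. At q under 0.1, the members called higher were 4, against 24.9% higher and 6.6% lower among tested rows. At an unadjusted p under 0.05, 5 members were higher, including dcp2 (ENSDARG00000039016), against 27.5% higher and 8.22% lower. With a call and a difference of at least 1.5-fold, 2 members remained, ddx6 and lsm14b, against 11.9% higher and 0.885% lower.

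Genes that work beside the decapping enzyme were read from 4 lists of partners, with the same call, beside the 20.6% of all tested rows called higher and the 4.35% called lower. Not every symbol sought had a row: 9 symbols of the LSM ring and PAT1 gave 7 rows, and 20 cap-handling symbols gave 14. The 22 symbols of RNA-binding partners and repressors gave 17 rows, and the 24 of deadenylation gave 18. Genes without a row under these symbols are not covered. Of 7 tested genes of the LSM ring and PAT1, which bind shortened tails and recruit decapping, 3 (42.9%) were called higher by the authors' deposited table and 0 lower, with a median log2 ratio of 0.04 against 0.12 for all tested rows. lsm1, the subunit that defines the cytoplasmic ring, rose from 10.4 to 21.2 FPKM (2.04-fold), lsm4 from 29.9 to 53.6 FPKM (1.8-fold) and the oocyte PAT1 gene PATL2 from 23.1 to 36.5 FPKM (1.58-fold). At an unadjusted Cuffdiff p under 0.05 the count of lower genes was also 0, where 8.22% of all tested rows were lower. Their partner patl1 was at 101 and 104 FPKM and was not called.

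Of 14 tested genes that bind, add or remove caps or degrade uncapped RNA, 3 (21.4%) were called higher by the authors' deposited table and 0 lower, with a median log2 ratio of 0.05. This share is close to the 20.6% of all tested rows. The called genes were the cap-binding genes eif4eb (11.9 to 19.3 FPKM, 1.63-fold) and eif4e3 (28.03 to 40.5 FPKM, 1.44-fold) and the capping enzyme gene rngtt (8.18 to 10.4 FPKM, 1.27-fold). The scavenger decapping gene dcps, which acts on cap fragments left by other decay, was at 89.3 and 90.8 FPKM, and the nuclear exonuclease gene xrn2 at 163 and 142 FPKM. Neither was called. At an unadjusted Cuffdiff p under 0.05, 1 gene of this list was lower, against 8.22% of all tested rows. It was the cap-binding gene eif4ea, at 29.9 and 25.04 FPKM.

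Of 16 tested RNA-binding partners and repressors, 2 (12.5%) were called higher by the authors' deposited table and 1 (6.25%) lower, against 20.6% and 4.35% of all tested rows, and the median log2 ratio was -0.17. zar1l, an oocyte RNA-binding gene, rose from 44.9 to 118 FPKM (2.62-fold) and pabpc1l, which encodes an embryonic poly(A)-binding protein, from 25.6 to 39.1 FPKM (1.53-fold). igf2bp1, whose product binds and stabilises mRNAs, fell from 126 to 82.4 FPKM (1.53-fold lower). The gene of the Ddx6 partner 4E-T, eif4enif1, was at 36.4 and 41.5 FPKM and was not called (q = 0.179).

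Of 17 tested genes of deadenylation, the step before decapping, 6 (35.3%) were called higher by the authors' deposited table and 0 lower, against 20.6% and 4.35% of all tested rows, with a median log2 ratio of 0.18. The largest called rises were those of btg4 (29.5 to 148 FPKM, 5.02-fold), of the deadenylase gene cnot7 (4.55 to 7.998 FPKM, 1.76-fold) and of the adaptor gene tob1a (89.1 to 137 FPKM, 1.54-fold). The deadenylase gene cnot6l had a ratio of 1.65, at 6.11 and 10.1 FPKM, and was not called (q = 0.0561). At an unadjusted Cuffdiff p under 0.05 again 0 were lower, where 8.22% of all tested rows were. The scaffold gene cnot1 was at 75.5 and 70.4 FPKM and was not called.

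**Figure D4:**
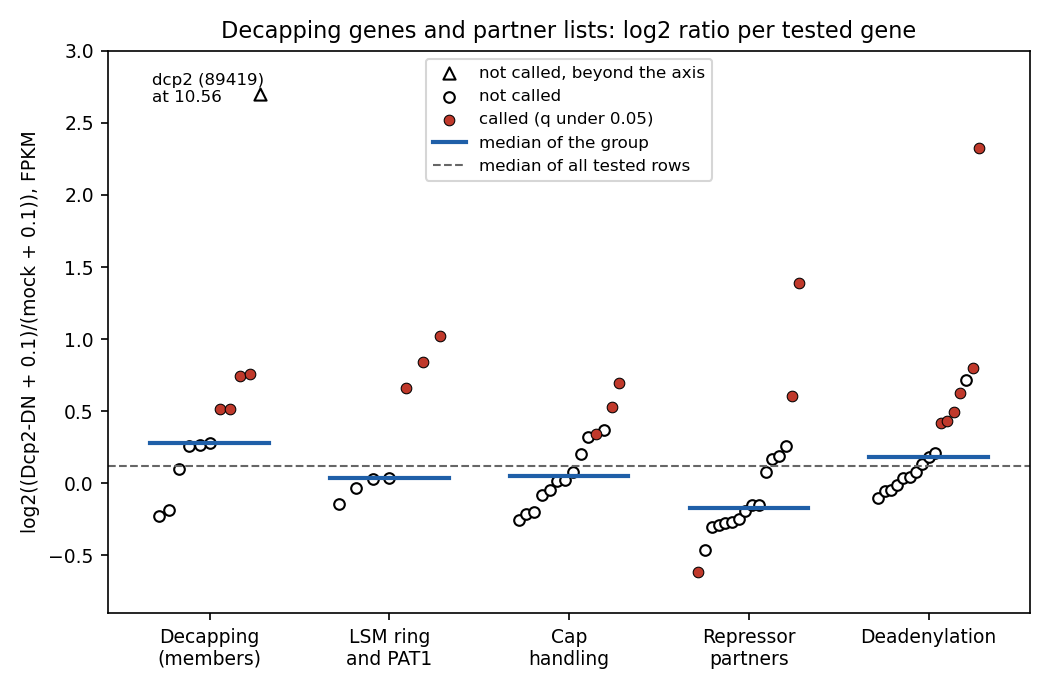
Log2 ratio of Dcp2-DN over mock FPKM (0.1 FPKM added to each) for each tested gene among the decapping members and in 4 partner lists, ordered within each group, with filled points for called genes. Bars mark group medians, which run from -0.17 for repressor partners to 0.28 for the decapping members, and the dashed line marks the median of all tested rows at 0.12.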

How the data were processed

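The deposited table has the header of a Cuffdiff gene comparison, and per the submitters' processing notes TopHat 1.4.0 and Cuffdiff 2.1.1 were used with builds Zv9 and danRer7. Libraries were stranded and depleted of ribosomal RNA, per the labels' protocols. For each gene the authors deposited 1 FPKM value in each group, a p-value and a q-value. Annotation, scaling between libraries and strand use in counting are not given in the sources used here. The call equalled an OK status with q under 0.05 in all 32571 rows, and 14810 rows had a test.

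Log2 ratios were taken after adding 0.1 FPKM to both values, which makes changes of low genes look smaller, and folds are ratios of the FPKM values themselves. The fold change and test statistic columns held spreadsheet errors and were not used. No test across samples could be fitted. The members, partner lists, naming rule and alternatives were chosen with earlier results of these data known. Named genes were all members, up to 3 called genes per partner list and direction, the rows beside the second dcp2 model and 3 other rows with the largest ratios. The uncalled partners lsm14ab, patl1, dcps, xrn2, eif4ea, eif4enif1, cnot6l and cnot1, the stage markers, the read-step ratios (tolerance 4 decimals) and the counts of rows near a member's ratio were chosen after the values were seen. Of the 11 member IDs, 8 were in the name table used, and all 10 symbols were in the RefSeq table of GRCz12tu. Coordinates are locus spans as deposited, with starts that may count from 0 or from 1. Computations used Python 3.11.15, NumPy 2.4.6 and pandas 2.3.3, with matplotlib 3.10.9 for figures, and the call counts and read-step ratios were tested on simulated data.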

Additional observations from a re-analysis of the deposited data

How the results depend on the processing

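With at least a 1.5-fold difference required, the members called higher were 2 in place of 4. The median log2 ratio of the members was 0.28 with pseudocounts of 1 (0.2791) and 0.01 (0.2824), 0.16 when centred on all rows, 0.50 when centred on ribosomal protein genes and 0.27 without the second dcp2 model, a choice made after seeing the data. That model was not called, so leaving it out could not change the counts of 4 higher and 0 lower. Recomputing the Benjamini-Hochberg adjustment over all tested rows from the authors' own p-values also gave 4 and 0. This checks the adjustment only and is no separate support for the calls. Centring on all rows turned edc3 to -0.021, and centring on ribosomal protein genes turned edc4 to 0.030. The log2 ratio of the second dcp2 model was 7.68 with a pseudocount of 1 and 12.05 with 0.01. No paired analysis was possible because the table holds 1 value per group, and for the same reason no replicate could be left out. Since absolute depth is unknown, no counting error can be given for any level.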
